A study of Mus musculus with 6 samples.

Results

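The *Slitrk* and *Lrfn* genes encode 2 families of leucine-rich repeat proteins that sit in the postsynaptic membrane and organize synapses, and their RNA was compared between control and *Mef2c* cKO mice in the somatosensory cortex. The members were taken by gene symbol, with earlier results of these data known. They are *Slitrk1* to *Slitrk5* and *Lrfn1* to *Lrfn5*, 10 of the 21667 named genes in the tables. All 10 entered the test, which covered 14623 genes.

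Slitrk proteins carry leucine-rich repeats outside the cell and reach across the cleft to receptor tyrosine phosphatases of the LAR type on the axon. *Slitrk3* is known for its role at inhibitory synapses, whereas *Slitrk1* and *Slitrk2* have been studied mainly at excitatory ones. The Lrfn proteins, also called SALMs, combine such repeats with an immunoglobulin and a fibronectin domain. The products of *Lrfn1*, *Lrfn2* and *Lrfn4* end in a motif that binds the postsynaptic scaffold PSD-95, and those of *Lrfn4* and *Lrfn5* bind LAR-type phosphatases.

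Polyadenylated RNA was sequenced from 3 control and 3 *Mef2c* cKO adult male mice on a mixed SVeV-129 and C57BL/6J background. All 6 mice carried floxed *Mef2c* on both alleles, and only the cKO mice also carried Cre in the *Emx1* gene, which is active in most cortical excitatory neurons and in some forebrain glia. Interneurons, microglia and vessels therefore keep *Mef2c*. Replicate 1 of each genotype was 14 weeks old, and replicates 2 and 3 were 12 weeks old.

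The deposited tables give RPKM, the reads on a gene divided by a length and scaled to the total reads of the mouse. The length was not that of the gene: each table used a list of 65 to 295 lengths that recurred down the rows, so that the same gene was divided by a different length in each mouse. Whole read counts were recovered from the steps in the values, and at least 98.72% of the values above 0 in every table were given a count. The totals came to 19326365 to 54128334 reads per mouse. Levels are given as CPM, the reads on a gene scaled to a total of 1000000 reads per mouse, and between genes only as CPM per kb of exon. For the 10 genes, the highest deposited RPKM was 13.5 (*Slitrk1*) to 101 (*Slitrk3*) times the lowest over the 6 mice, and the highest recovered CPM 1.16 (*Lrfn4*) to 1.55 (*Slitrk5*) times the lowest.

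**Figure D1:**
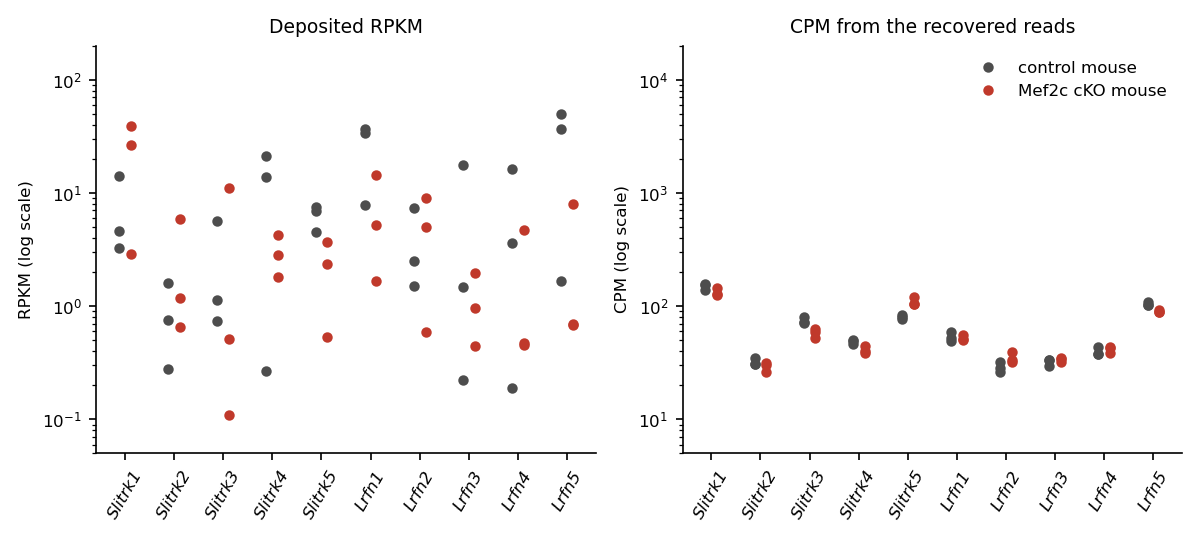
Deposited RPKM (left, log scale) and CPM from the recovered reads (right, log scale) of the 10 genes, 1 point per mouse, gray for control and red for *Mef2c* cKO. Both axes span the same number of decades, and the points of a gene lie up to 101 times apart on the left and up to 1.55 times apart on the right.

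Of the whole series, 1983 genes passed both cut-offs (limma adjusted p under 0.05 and an absolute log2 fold change above 0.3), 1129 lower and 854 higher in *Mef2c* cKO. Reads on *Mef2c* itself rose from 791 ± 16.4 CPM in control to 1325 ± 126 CPM in *Mef2c* cKO (SD, n = 3 each), a log2 fold change of 0.74 (SE 0.08, limma adjusted p = 0.000179). These reads are counted over the whole gene, including the exons that Cre leaves in place, so they do not check the labels. Why they rose was not tested. By western blot, the authors reported strongly reduced MEF2C protein in the cortex of *Mef2c* cKO mice. Among 8 pyramidal neuron markers, those that were higher included *Neurod6*, *Tbr1* and *Neurod2*, and *Cux2* was lower, with summed levels of 5794 to 6905 CPM in control and 5792 to 7047 CPM in *Mef2c* cKO mice. All 8 oligodendrocyte markers had positive log2 fold changes (median 0.53) and an unadjusted p-value under 0.05, of which *Mobp* and *Cldn11* passed both cut-offs, and the sums were 3237 to 5314 and 5255 to 6752 CPM. Of 8 astrocyte markers, all at an unadjusted p under 0.05 and 5 with negative log2 fold changes (median -0.20), *Gfap* and *Aqp4* were higher and *Aldh1l1* lower past both cut-offs, with sums of 4736 to 5038 and 4169 to 4436 CPM. Among 8 interneuron markers *Sst* and *Htr3a* were higher and *Pvalb* lower, and among the other lists *Olig2* (precursors of oligodendrocytes) and *Prkcd* (thalamus) were higher and *Slc17a6* (thalamus) lower, while none of 8 microglial, 6 endothelial and 5 striatal markers passed both cut-offs in limma, with 3, 0 and 0 of them at an unadjusted p under 0.05. The striatal markers summed to 61.8 CPM in *Mef2c* cKO replicate 2 and to 132 to 229 CPM in the other mice. The part of these shifts in the results on the *Slitrk* and *Lrfn* genes was not tested. In bulk tissue, fewer cells of a type and less RNA per cell cannot be told apart.

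The members that passed both cut-offs were 2 *Slitrk* genes with opposite directions, *Slitrk5*, which rose, and *Slitrk3*, which fell. This is 2 of 10 genes beside 13.6% of all genes tested, with 1 higher beside 5.84% and 1 lower beside 7.72%. No *Lrfn* gene passed both cut-offs in limma with Benjamini-Hochberg adjustment, although *Lrfn5* had an adjusted p-value under 0.05 at a smaller fold (3 of the 10 members beside 16.1% of all genes) and 2 of the 5 had an unadjusted p-value under 0.05 (6 of the 10 members beside 28.4% of all genes). The levels of 5 of the 10 genes did not overlap between genotypes, beside 33.9% of all genes, 2 higher (beside 16.3%) and 3 lower (beside 17.6%) in *Mef2c* cKO. The median log2 fold change was -0.18 over the *Slitrk* genes, 0.06 over the *Lrfn* genes and 0.008 over all genes tested.

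**Figure D2:**
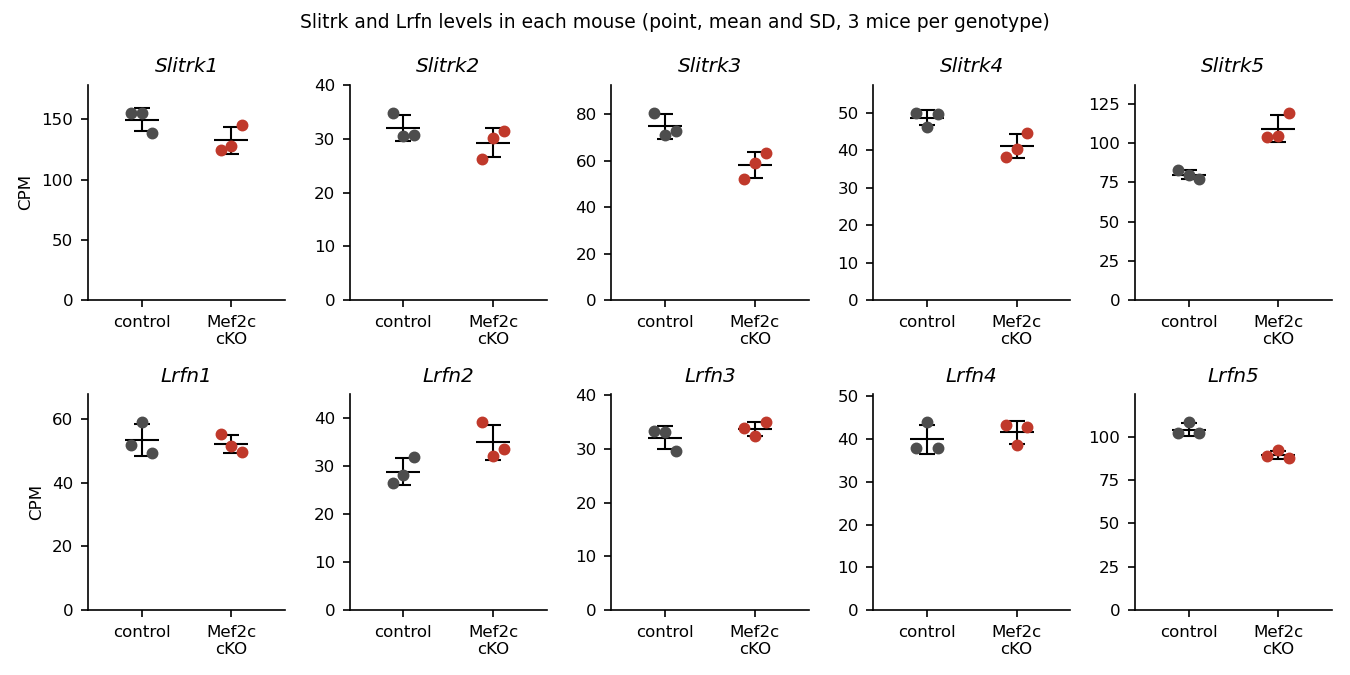
CPM of each gene in each mouse (points, replicates 1 to 3 from left to right), with the mean and SD of the 3 mice per genotype and axes that start at 0. The genotypes are apart for *Slitrk3*, *Slitrk4*, *Slitrk5*, *Lrfn2* and *Lrfn5* and overlap for the other 5 genes.

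*Slitrk5* encodes a family member that is known to bind the receptor TrkB as well as the phosphatase PTPδ. It lies on the plus strand at chr14:112074337-112082356 (NCBIM37, the mm9 build) and has 2 exons in its longest annotated transcript. It was at 83.1, 79.4 and 77.1 CPM in control replicates 1, 2 and 3 and at 104, 104 and 119 CPM in *Mef2c* cKO replicates 1, 2 and 3. Every *Mef2c* cKO mouse was above every control mouse. The means were 79.9 ± 2.995 and 109 ± 8.75 CPM (SD, n = 3 each), and the log2 fold change was 0.45 (SE 0.07, limma adjusted p = 0.00198), which is 36.6% more. In the 12-week-old mice alone, the log2 fold change was 0.51 (limma adjusted p = 0.0108).

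For *Slitrk5*, the deposited value fitted more than 1 length in control replicates 2 and 3, and the length was taken from the neighbours of the gene in the row order of the authors' tables, which all named the same length (7 of 7 and 14 of 14). The other lengths would have given 318 CPM in control replicate 2 and 18.5, 24.7, 46.3 or 429 CPM in control replicate 3. With both values left out, only control replicate 1 is left to compare, under the assumption that it varies like the *Mef2c* cKO mice, and the log2 fold change was 0.39 (SE 0.11, limma adjusted p = 0.0488).

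*Slitrk3* encodes the family member known for inducing inhibitory presynaptic terminals through PTPδ. It lies on the minus strand at chr3:72852048-72860865 and also has 2 exons. It was at 80.7, 70.9 and 72.8 CPM in control replicates 1, 2 and 3 and at 52.4, 59.2 and 63.3 CPM in the *Mef2c* cKO replicates. All *Mef2c* cKO mice were below all controls, and the lowest *Mef2c* cKO mouse and the highest control mouse were the 14-week-old ones. The means were 74.8 ± 5.21 and 58.3 ± 5.52 CPM (SD, n = 3 each), with a log2 fold change of -0.36 (SE 0.08, limma adjusted p = 0.0172). The *Slitrk3* call did not hold in every fit. With all 6 mice and no variance trend, the limma adjusted p was 0.0548. Without control replicate 1 the log2 fold change was -0.31 (limma adjusted p = 0.0634), without *Mef2c* cKO replicate 1 it was -0.29 (limma adjusted p = 0.0485, within the fold cut-off), and in the 12-week-old mice alone it was -0.23 (limma adjusted p = 0.11).

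The sequence before the start is shown for these 2 genes because MEF2C acts on promoters and enhancers. The 250 bases upstream of the start are given from RefSeq on GRCm38.p6, 5′ to 3′ on the strand of the gene, with each CG pair in capitals, for *Slitrk3* at chr3:73057067-73057316 (minus strand) and *Slitrk5* at chr14:111675777-111676026 (plus strand).
*Slitrk3*: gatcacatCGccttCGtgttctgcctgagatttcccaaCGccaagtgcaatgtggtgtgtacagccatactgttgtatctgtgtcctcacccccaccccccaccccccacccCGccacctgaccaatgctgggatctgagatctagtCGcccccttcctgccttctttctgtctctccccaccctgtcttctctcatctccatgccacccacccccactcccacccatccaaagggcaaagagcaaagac
*Slitrk5*: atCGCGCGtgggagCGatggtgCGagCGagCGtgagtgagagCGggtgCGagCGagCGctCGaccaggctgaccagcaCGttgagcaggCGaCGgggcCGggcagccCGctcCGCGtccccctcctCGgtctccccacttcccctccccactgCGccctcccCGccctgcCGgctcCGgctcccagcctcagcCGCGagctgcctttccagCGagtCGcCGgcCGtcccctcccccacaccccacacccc
The *Slitrk3* sequence holds 5 CG pairs at 57.6% G and C, and the *Slitrk5* sequence 30 CG pairs at 74.8%. The median over all 32851 RefSeq promoter windows was 6 CG pairs, and 94.1% of the windows held fewer than *Slitrk5*. Of the other members, *Lrfn5*, which was lower in *Mef2c* cKO, had 27 CG pairs. *Slitrk1* had 9, *Slitrk2* had 6 or 15 depending on the start, and *Lrfn3* and *Lrfn4* had 20 and 21, all with levels that overlapped between genotypes. Whether the number of CG pairs goes with the direction of change was not tested. The MEF2 consensus, searched on both strands, was in none of the 300-base windows (250 before to 50 after the start) of the 7 members that the table holds, and in 3.19% of all such windows. In the 2000 bases before the annotated start in the mm9 genome, it was found for 2 of the 10 members, *Slitrk1* and *Lrfn5*, and for 28.8% of 22102 protein-coding genes. Neither gene past the cut-offs had a match there. Both matches are printed on the gene's strand with the consensus match in capitals, the *Slitrk1* match at chr14:109315230-109315239 (minus strand, 1783 bases before the start) and the *Lrfn5* match at chr12:62623749-62623758 (plus strand, 388 bases before the start).
*Slitrk1*: ctacacatgcTTATAAATAAatgtaagaat
*Lrfn5*: ttatttttttTTAAATTTAAatcattattc
A match describes these letters only and is not shown to be bound.

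*Slitrk4*, on the X chromosome at chrX:61518060-61530171 (minus strand), fell short of the cut-offs. It was at 50.1, 46.4 and 49.7 CPM in the control replicates and at 38.3, 40.4 and 44.7 CPM in the *Mef2c* cKO replicates. The genotypes did not overlap, and the log2 fold change was -0.25 (SE 0.07, limma adjusted p = 0.0552). The value of control replicate 2 again fitted several lengths and was settled by the row order (10 of 10 neighbours). Without *Mef2c* cKO replicate 3, the highest of its group, *Slitrk4* passed both cut-offs at -0.31 (limma adjusted p = 0.0309). It passed in no other fit. Without *Mef2c* cKO replicate 1 the log2 fold change was -0.20 (limma adjusted p = 0.161), and in the 12-week-old mice alone it was -0.18 (limma adjusted p = 0.285).

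*Slitrk1*, a gene with a single annotated exon at chr14:109309208-109313456 (minus strand), had the highest level per exon length of all 10 members. Its levels were 156, 155 and 139 CPM in the control replicates and 124, 128 and 145 CPM in the *Mef2c* cKO replicates. *Mef2c* cKO replicate 3 was above control replicate 3, so the genotypes overlapped, and the log2 fold change of -0.18 (95% CI -0.35 to -0.01) had a limma adjusted p of 0.159. *Slitrk2*, at chrX:63902493-63914568 (plus strand), was at 34.9, 30.5 and 30.7 CPM in control and 26.2, 30.1 and 31.5 CPM in *Mef2c* cKO. These values overlapped, with a log2 fold change of -0.13 (95% CI -0.34 to 0.07, limma adjusted p = 0.393). The remaining *Slitrk* gene of the tables, *Slitrk6*, lies between *Slitrk1* and *Slitrk5* on chromosome 14 and was barely detected, with 7, 5 and 8 reads in control and 16, 10 and 16 reads in *Mef2c* cKO mice. It was at 0.101 to 0.206 and 0.296 to 0.517 CPM and did not reach the minimum of 0.5 CPM in every mouse of a genotype.

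**Figure D3:**
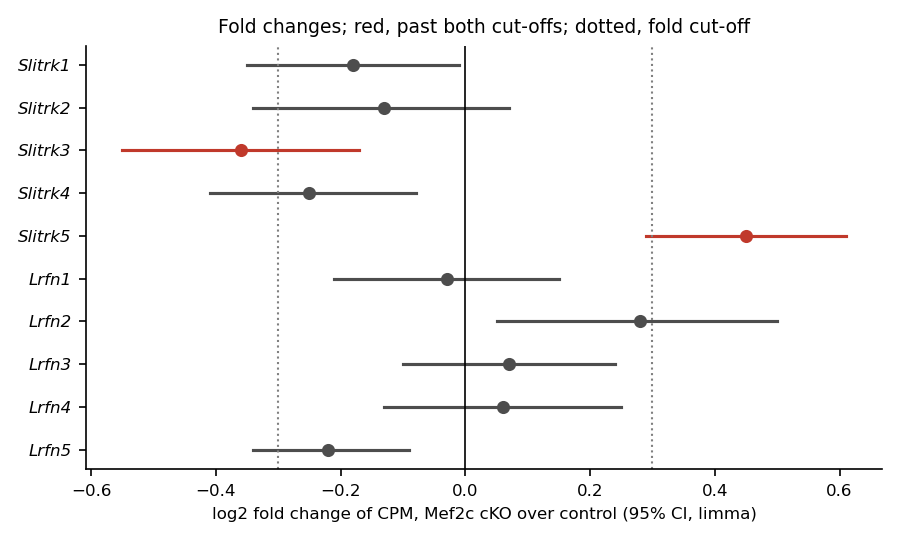
log2 fold change of CPM in *Mef2c* cKO over control for each gene, with the 95% confidence interval from limma, red for genes past both cut-offs and dotted lines at the fold cut-off of 0.3. *Slitrk5* lies at 0.45 and *Slitrk3* at -0.36, and the intervals of *Slitrk2*, *Lrfn1*, *Lrfn3* and *Lrfn4* include 0.

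Among the *Lrfn* genes, *Lrfn5* had the smallest adjusted p-value. It spans 334779 bases at chr12:62624137-62958915 (plus strand), and its product, SALM5, binds LAR-type phosphatases. It was at 102, 108 and 102 CPM in the control replicates and at 88.6, 92.1 and 87.9 CPM in the *Mef2c* cKO replicates. The genotypes did not overlap, and the level was 13.9% lower. The log2 fold change was -0.22 (SE 0.06, limma adjusted p = 0.0277), which is within the fold cut-off. The adjusted p-value went above 0.05 with no variance trend (0.0733), in the 12-week-old mice alone (0.11) and in 5 of the 6 fits that left out 1 mouse, which gave 0.0491 (without *Mef2c* cKO replicate 2) to 0.0981 (without control replicate 2).

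*Lrfn2* lay in the other direction. It encodes SALM1, which binds PSD-95, and spans 165210 bases at chr17:49071704-49236913 (plus strand). Its levels were 26.4, 28.2 and 32.0 CPM in the control replicates and 39.2, 32.2 and 33.6 CPM in the *Mef2c* cKO replicates. The genotypes were apart only by a narrow gap between control replicate 3 and *Mef2c* cKO replicate 2, and the log2 fold change of 0.28 (SE 0.10) did not pass (limma adjusted p = 0.0984). In the 12-week-old mice alone, the log2 fold change of *Lrfn2* was 0.13 (limma adjusted p = 0.473).

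The other 3 *Lrfn* genes overlapped between genotypes. *Lrfn1* (SALM2, chr7:29237257-29252567, plus strand) was at 52.0, 59.1 and 49.5 CPM in control and 55.5, 51.6 and 49.9 CPM in *Mef2c* cKO, a log2 fold change of -0.03 (95% CI -0.21 to 0.15). *Lrfn3* (SALM4, chr7:31140533-31147791, minus strand) was at 33.4, 33.2 and 29.7 CPM in control and 34.0, 32.3 and 35.0 CPM in *Mef2c* cKO, a log2 fold change of 0.07 (95% CI -0.10 to 0.24). *Lrfn4* (SALM3, chr19:4611785-4615667, minus strand) was at 38.0, 43.9 and 37.9 CPM in control and 43.2, 38.6 and 42.9 CPM in *Mef2c* cKO, a log2 fold change of 0.06 (95% CI -0.13 to 0.25). The intervals of these genes leave out any change larger than 0.25 in either direction on the log2 scale. No exon of the 10 members overlaps an exon of another gene in the annotation used here.

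Per kb of annotated exon, the levels in control cortex ran in the order *Slitrk1* (35.2 ± 2.27 CPM per kb), *Slitrk3* (20.1 ± 1.397), *Lrfn1* (19.6 ± 1.81), *Slitrk5* (16.6 ± 0.623), *Lrfn5* (13.2 ± 0.464), *Lrfn4* (11.9 ± 1.03), *Lrfn3* (11.2 ± 0.742), *Lrfn2* (9.02 ± 0.891), *Slitrk4* (5.57 ± 0.234) and *Slitrk2* (3.97 ± 0.303), each a mean ± SD of 3 mice. Neighbours in this order were apart over the 3 mice except *Slitrk3* and *Lrfn1*, *Lrfn5* and *Lrfn4*, and *Lrfn4* and *Lrfn3*, whose ranges overlapped. In *Mef2c* cKO cortex *Slitrk5* came second at 22.7 ± 1.82 CPM per kb and *Slitrk3* stood at 15.6 ± 1.48 CPM per kb. The exon lengths, from 2729 bases (*Lrfn1*) to 8743 bases (*Slitrk4*), are those of the annotation used here and set the order between genes.

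**Figure D4:**
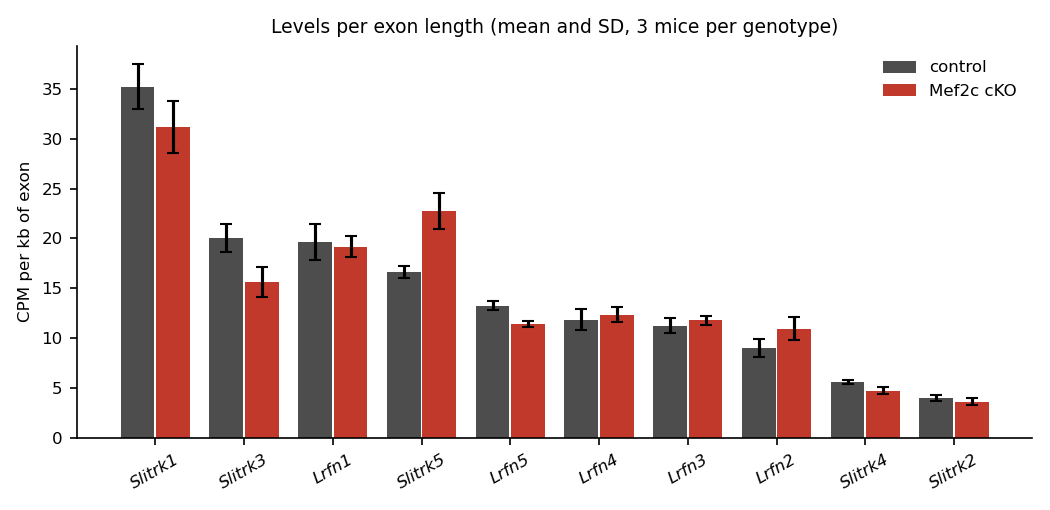
CPM per kb of annotated exon for each gene, in the order of the control means, as bars with the SD of 3 mice per genotype. *Slitrk5* is at 16.6 in control and 22.7 in *Mef2c* cKO, and *Slitrk3* at 20.1 and 15.6.

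The summed level of the *Slitrk* family overlapped between genotypes, while its makeup differed. The 5 *Slitrk* genes added up to 77.7 to 85.6 CPM per kb in control and 72.6 to 84.9 CPM per kb in *Mef2c* cKO mice. *Slitrk5* made up 20.2% to 20.7% of this sum in the control mice and 28.5% to 29.9% in the *Mef2c* cKO mice. *Slitrk3* made up 23.4% to 25.3% and 19.3% to 20.8%. The ratio of *Slitrk5* to *Slitrk3* reads, which does not depend on the total of a mouse, was 1.03, 1.12 and 1.06 in the control replicates and 1.99, 1.76 and 1.89 in the *Mef2c* cKO replicates. This pair was chosen after its values were seen, and its ratio is given with no test. The 5 *Lrfn* genes added up to 62.7 to 68.9 CPM per kb in control and 63.4 to 68.6 CPM per kb in *Mef2c* cKO mice, and *Lrfn5* made up at most 20.7% of this sum in any control mouse and 16.4% to 18.5% in the *Mef2c* cKO mice, with means of 20.4% and 17.4%.

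The partners of these proteins were examined in 8 lists of 56 genes in all, of which 53 were tested and 18 passed both cut-offs, 8 higher and 10 lower, beside 13.6% of all genes tested. The presynaptic receptors, the LAR-type phosphatases, were all lower in every *Mef2c* cKO mouse than in any control mouse (3 of 3 genes, beside 17.6% of all genes; median log2 fold change -0.65). *Ptprd*, which encodes the PTPδ that Slitrk proteins bind, was at 642, 736 and 807 CPM in the control replicates and at 416, 551 and 427 CPM in the *Mef2c* cKO replicates, a log2 fold change of -0.65 (SE 0.12, limma adjusted p = 0.00483). *Ptprf*, which encodes LAR itself, fell from 78.1 ± 4.62 to 44.3 ± 6.94 CPM (SD, n = 3 each), by 0.83 on the log2 scale (limma adjusted p = 0.000871). *Ptprs*, which encodes PTPσ, had a log2 fold change of -0.19 (adjusted p = 0.0492 in limma), within the fold cut-off.

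Other ligands of these phosphatases went both ways (median 0.15 over 5 tested). *Gpc4*, a heparan sulfate proteoglycan that binds PTPσ, rose from 8.61 ± 1.199 to 34.6 ± 3.54 CPM, by 2.0 on the log2 scale (limma adjusted p = 8.04e-06). *Il1rapl1*, a PTPδ ligand and an intellectual disability gene, fell from 60.2 ± 8.68 to 39.0 ± 4.597 CPM, by 0.62 on the log2 scale (limma adjusted p = 0.00565). *Il1rap* (0.28), *Lrrc4b* (0.15) and *Ntrk3* (0.13) did not pass, and *Slitrk6* was not tested.

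On the inner side of the presynaptic membrane, 3 of 11 genes passed both cut-offs, beside 13.6% of all genes tested (median log2 fold change -0.06). *Ppfibp1*, which encodes a liprin-β, fell by 1.23 on the log2 scale (limma adjusted p = 2.05e-05), from 53.3 ± 4.17 to 22.7 ± 1.82 CPM. The liprin-α gene *Ppfia4* fell by 0.41 and the liprin-α gene *Ppfia3* rose by 0.40 on the log2 scale. *Ppfia4* no longer passed without control replicate 2 (-0.38, adjusted p = 0.0553 in limma) or control replicate 3 (-0.36, adjusted p = 0.0507), or with no variance trend (-0.41, adjusted p = 0.0518), nor *Ppfia3* in the 12-week-old mice alone (0.35, adjusted p = 0.0922). The liprin-α proteins bind the inner domains of LAR-type phosphatases. *Caskin1* had an adjusted p-value of 0.00876 in limma at a log2 fold change of -0.26, and its exons overlap those of *Traf7*.

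On the postsynaptic side, none of the 4 PSD-95 family genes passed both cut-offs in limma, while all 4 had an unadjusted p-value under 0.05, beside 28.4% of all genes. They lay on both sides of 0, with log2 fold changes of -0.21 (*Dlg1*), -0.16 (*Dlg2*), 0.15 (*Dlg3*) and -0.22 (*Dlg4*). *Dlg4*, which encodes PSD-95, was at 764 ± 5.87 CPM in control and 659 ± 36.4 CPM in *Mef2c* cKO (adjusted p = 0.0375 in limma). Of 5 glutamate receptor subunit genes (median -0.12), *Gria1* rose by 0.64 (limma adjusted p = 0.000823) and *Grin2a* fell by 0.47 on the log2 scale (limma adjusted p = 0.0409). The *Grin2a* call was lost without control replicate 1 (-0.51, adjusted p = 0.0711 in limma), control replicate 3 (-0.36, 0.127), *Mef2c* cKO replicate 2 (-0.45, 0.105) or *Mef2c* cKO replicate 3 (-0.36, 0.113). With all 6 mice, *Grin2a* was also lost with no filter on low values (adjusted p = 0.0528), no variance trend (0.105) and age as a covariate (0.0539). *Grin2b* was fitted without control replicate 2, which had no recovered count, and had a log2 fold change of -0.12. Neither flotillin gene passed, with log2 fold changes of -0.19 (*Flot1*) and -0.24 (*Flot2*) and adjusted p-values under 0.05 for both. Of the Trk receptor genes, *Ntrk2*, which encodes the TrkB that Slitrk5 binds, was at 444 ± 14.0 and 424 ± 34.2 CPM, a log2 fold change of -0.07 (95% CI -0.23 to 0.09), and neither it nor *Ntrk3* passed.

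Of 24 other leucine-rich repeat genes, 23 were tested. Past both cut-offs, 5 were higher and 4 lower, beside 5.84% and 7.72% of all genes tested. The median log2 fold change of the 23 genes was 0.04. *Islr2* rose most, from 40.2 ± 0.537 to 108 ± 9.69 CPM, by 1.42 on the log2 scale, and all 3 *Lrrn* genes rose (*Lrrn1* by 0.55, *Lrrn2* by 0.52 and *Lrrn3* by 0.36), as did *Elfn2* (by 0.36). Without control replicate 2, *Lrrn3* was within the fold cut-off at 0.29 (adjusted p = 0.0234 in limma). *Lrrtm4* fell by 1.05, *Flrt1* by 0.68, *Lrrc4* by 0.52 and *Lrtm2* by 0.44 on the log2 scale. *Lrrtm4* and *Lrrc4* encode postsynaptic organizers like the Slitrk proteins, and the exons of *Lrrtm4* overlap those of *Gm4409*.

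**Figure D5:**
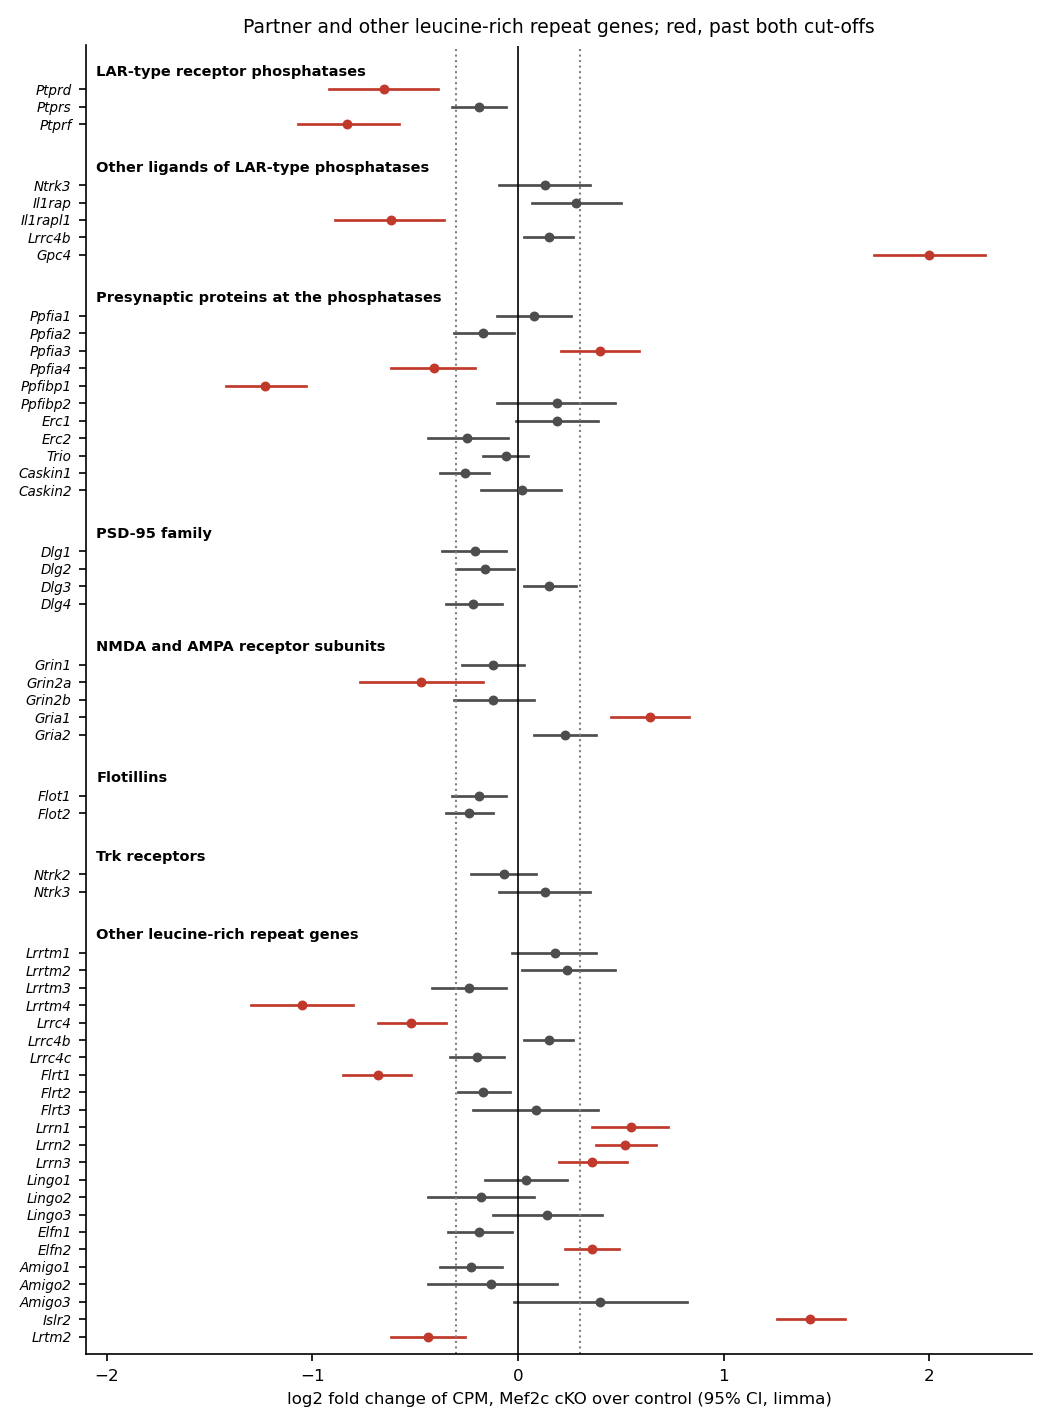
log2 fold change of CPM in *Mef2c* cKO over control, with the 95% confidence interval from limma, for the tested genes of the 8 lists (*Ntrk3* and *Lrrc4b* stand in 2 lists each), red for genes past both cut-offs and dotted lines at 0.3. *Gpc4* (2.0) lies farthest to the right and *Ppfibp1* (-1.23) farthest to the left.

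Of the relatives of *Mef2c*, *Mef2d* rose from 139 ± 2.27 to 177 ± 6.97 CPM, by 0.35 on the log2 scale (limma adjusted p = 0.00185), and *Mef2a* was at 88.3 ± 4.01 and 98.6 ± 1.93 CPM, a log2 fold change of 0.16 (adjusted p = 0.0962 in limma). The authors, who used DESeq, reported no significant change of either gene, so the result for *Mef2d* differs from theirs.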

How the data were processed

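The authors extracted polyadenylated RNA from the cortex of the 6 mice, made directional libraries, aligned the reads to mm9 (TopHat, Bowtie), counted them per gene (HTSeq, UCSC annotation) and deposited RPKM, 1 table per mouse. Versions are not given in the sources used here. The authors' deposited RPKM are whole reads divided by the sample total and by a length from a list repeated in the row order, here found to be that of the NCBI gene IDs sorted as text. The total, the lengths and the counts were recovered from these steps. Where several lengths gave a whole count, the value was settled by the same gene's lengths in other tables or by its 8 neighbours on each side in the row order (at least 3 votes and 80% of the votes for its candidates), and otherwise was missing. No expression level was used in this choice, and the settling steps were chosen after the data had been seen. In the 62635 values with a single length that the neighbours could check, 188 went against them, so some counts may be wrong. In control replicate 3, a length among the 233 found may be spurious.

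CPM are recovered reads scaled to a total of 1000000, and log2(CPM + 0.1) was fitted with limma 3.58.1 (lmFit, eBayes with trend, R 4.3.3) over the 14623 genes with a CPM above 0.5 in every mouse of at least 1 genotype and 2 values per genotype, with Benjamini-Hochberg adjustment over all of them. Genes passed at an adjusted p under 0.05 and an absolute log2 fold change above 0.3. The log2 scale with a pseudocount understates changes of low genes. The p-values set the difference between genotypes against the spread of the mice within each genotype. In limma this spread is moderated towards a trend over all genes tested. The steps were tested on simulated data. In 3 simulated tables, at least 99.95% of the values were given a count. The limma fit called 27 of 98 genes that were set to differ by 0.4 on the log2 scale (27.6%). It called 92 of 100 genes that were set to differ by 0.8 (92.0%). It also called 8 genes that were left unchanged, with 14632 genes tested. Far fewer genes were changed in this simulation than passed in the data, and all genes were given the same spread between mice beyond counting noise. These shares therefore need not hold for the real comparison. The 92 rows without a gene name held under 0.1% of the reads of each mouse and were not tested.

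The members and lists were chosen with earlier results of these data known. The genes named are the members, *Slitrk6*, *Mef2c*, *Mef2a*, *Mef2d*, genes of the 7 partner lists whose count is needed, and, of the other leucine-rich repeat genes, those past the cut-offs. The cell type markers were 9 lists, of which genes past the cut-offs are named. Some genes of the lists are not reported here. Positions and exon lengths are from gencode vM1 on NCBIM37, the same build as mm9 but not the authors' annotation. The strand setting of the counting is not given in the sources used here. Tables were handled with Python 3.11.15, numpy 2.4.6 and pandas 2.3.3.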

Additional observations from a re-analysis of the deposited data

How the results depend on the processing

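Besides dropping the fold cut-off, 19 alternatives were run, of which limma-voom left out genes with a missing count. *Slitrk5* stayed higher in *Mef2c* cKO and past both cut-offs in the 17 that could test it other than the deposited RPKM (log2 fold change 0.38 to 0.51, limma adjusted p 0.00192 to 0.0488). *Slitrk3* was lower in all 18 (-0.42 to -0.23, limma adjusted p 0.0133 to 0.11). Of the 10 members, 1 passed with no variance trend (*Slitrk5*), 1 in the 12-week-old mice alone (*Slitrk5*) and 1 with every value of ambiguous length missing (*Slitrk3*, *Slitrk5* then having too few values). Leaving out 1 mouse gave 1 to 3 members, 1645 to 1854 of all genes and 16 to 20 partner genes. *Slitrk2* (0.01) and *Lrfn4* (-0.0041) changed sign in the 12-week-old mice, and *Lrfn1* ran from -0.08 to 0.04 when 1 mouse was left out. The causes were not tested.

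The deviations of same-numbered mice from the mean of their genotype correlated at -0.178, -0.107 and -0.079, and those of differently numbered mice at -0.028 to 0.123. With means of only 3 mice, these values cannot show whether the mice were paired, for instance as littermates. The main fit did not pair them. With a replicate block, 1695 genes, 17 partner genes and 1 member (*Slitrk5*, limma adjusted p = 0.0105) passed, with limma adjusted p-values of 0.0508 for *Slitrk3*, 0.07 for *Lrfn5* and 0.077 for *Grin2a*.

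On the deposited RPKM, 14 of 7974 genes passed both cut-offs in limma (677 at an unadjusted p under 0.05), and 0 of 8 members (0 at an unadjusted p under 0.05) and 0 of 44 partner genes (2 at an unadjusted p under 0.05). The log2 fold changes were then 1.26 for *Slitrk1*, 1.12 for *Slitrk2* and -1.79 for *Slitrk5*, around a median of -0.166 over all genes. Each gene was divided there by a different length in each mouse.

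With no filter, *Slitrk6* had a log2 fold change of 1.06 (SE 0.26, limma adjusted p = 0.0268) on at most 16 reads a mouse. The fit with ambiguous values missing and 1 value per genotype enough was chosen after seeing the data.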
